A study of Drosophila eugracilis and Drosophila pseudoobscura and Drosophila bifasciata with 4 samples.

Results

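The QuantSeq library of D. eugracilis ovaries was examined as a map of mRNA 3' ends. It is 1 of the 4 libraries of the series and the only one made with a 3' end method. All 6256158 alignments in its list of genome-unique mappers were used, overlapping alignments on the same strand were merged into islands, and islands of 50 or more alignments were kept. The flies were wild type females of the strain labelled SHL12 on standard food, labelled as 2 to 7 days old, while the text on the extraction gives 3 to 7 days. The same strain also gave a library of oligo-dT selected polyA RNA, read along the whole transcript, with 13099511 alignments (each mate of a pair counted once), which served here for comparison. How many flies were pooled is not given in the sources used here, and no replicate exists, so the spread between biological samples is unknown and no test was run. Intervals are exact (Clopper-Pearson) 95% binomial intervals and cover at most counting error. Where alignments were counted they can be too narrow even for that, since PCR copies are not independent molecules. The gene table pairs genes of this assembly, ASM1815383v1, with LOC identifiers and biotypes but with no gene names, so the ovary label could not be checked against marker genes and no role is given for the genes below.

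Most eukaryotic mRNAs are made by cleavage of a longer transcript followed by addition of a poly(A) tail, and one gene can use several cleavage sites. In QuantSeq, cDNA synthesis is primed with oligo-dT at the tail, so reads cover the last stretch of the transcript and one edge of each pile of reads marks the cleavage site. An oligo-dT primer can also anneal to stretches of A inside a transcript. Drosophila ovaries hold germline and follicle cells, and the nurse cells load the growing oocyte with maternal mRNA, so an ovary library mixes transcripts of several cell types. In bulk RNA, fewer cells of a type and less RNA per cell cannot be told apart.

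The way in which spliced alignments were merged set the picture. When each alignment was taken over its whole span, introns included, 5548 islands formed and 696 held 50 or more alignments, together 99.63% of the library. The median width of these was 621 nt but the upper quartile was 273975.5 nt and the widest measured 5698145 nt. Islands wider than 5000 nt numbered 309 and held 97.9% of all alignments, so most of the library lay in islands that spanned many genes. Only 29.1% of the 3' ends of these islands lay within 10 nt of the most frequent 3' end of their island. The chaining rested on few alignments. Only 26673 alignments, 0.426% of the library, had a gap over 20000 nt, and leaving them out gave 7321 islands with a median width of 350 nt. The 3' block of these alignments had a median length of 19 nt, against 85 nt for alignments with a gap of 40 to 20000 nt.

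When merging used aligned bases instead, with a spliced alignment given to the island of its 3' block, 55856 islands formed, of which 16019 held a single alignment. The 8071 islands with 50 or more alignments held 95.8% of the library (interval 95.80 to 95.83%) and are the islands described from here on. Just outside the minimum lay 55 islands with exactly 49 alignments and just inside it 62 with exactly 50. The kept islands were split evenly between the strands, with 4006 (49.6%) on plus, and lay on 151 contigs. The 10 contigs with most islands carried 55.1% of them.

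The islands were narrow. Their median width was 299 nt, the quartiles were 219 and 401 nt, and 90% lay between 128 and 604 nt. The range was 9 to 2419 nt. Width rose with depth, from a median of 234 nt in islands of 50 to 99 alignments to 541 nt in the 113 islands of 10000 or more. Width runs from the lowest to the highest aligned base, so more alignments can widen an island. It was not compared at equal depth. The narrow end was partly made of 3' blocks of spliced alignments: in the 666 islands under 150 nt, 22.0% of alignments were spliced, compared with 0.76% in the 416 islands of 600 nt or more.

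**Figure D1:**
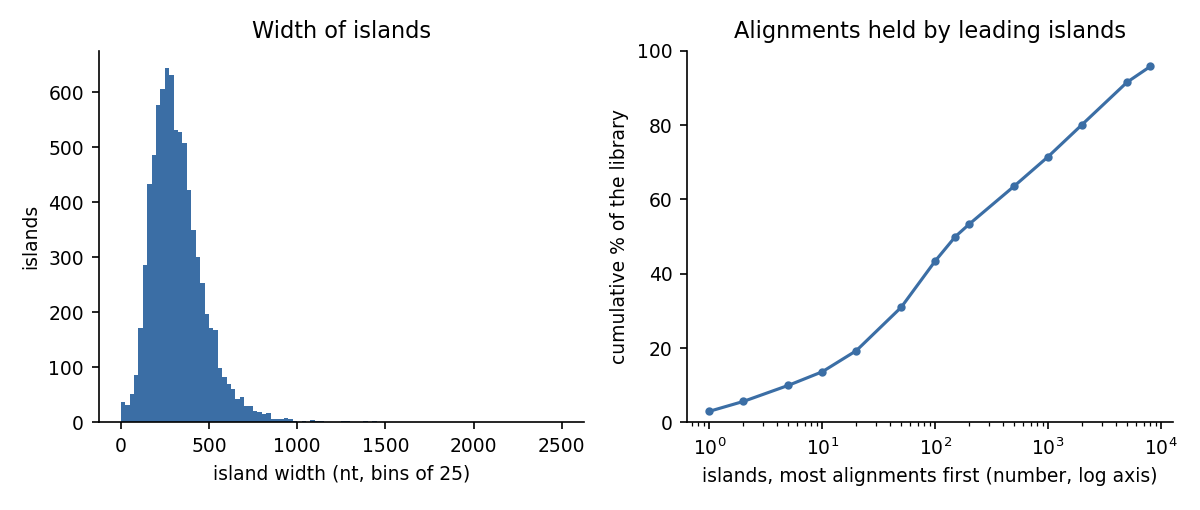
Width of the 8071 islands merged over aligned bases (left, islands per bin of 25 nt) and the cumulative share of the 6256158 alignments held by the leading islands (right, log axis for the number of islands). The median width was 299 nt, and 151 islands held 50% of the library.

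Reads were concentrated in few islands. The leading island held 3.00% of the library, the leading 10 held 13.6%, the leading 100 held 43.4% and the leading 1000 held 71.5%. The median island held 186 alignments (quartiles 99 and 395), and 151 islands sufficed for 50% of the library. The 852976 alignments of the 10 leading islands lay at 20943 distinct positions (start, end and strand), a number equal to 2.46% of the alignments, compared with 52.8% in islands of 50 to 99 alignments. An island of limited width has a limited number of positions, so this ratio falls with depth. Counting each position once lowered the share of the leading 10 from 13.6% to 1.91%, and without molecular identifiers PCR copies and separate molecules with the same ends cannot be told apart.

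The leading island, at positions 2072418 to 2073319 on the minus strand of contig NW_024573369.1, held 187533 alignments. Its most frequent 3' end, at position 2072605, took 54.8% of them and 82.5% ended within 10 nt. This base lay 11 nt before the end of the protein-coding gene LOC121530328. The third island, with 107816 alignments at positions 25855 to 26573 on the plus strand of contig NW_024572672.1, had 85.0% of its 3' ends within 10 nt of position 26329, 8 nt before the end of the protein-coding gene LOC121529741. The libraries ordered these islands differently. In QuantSeq, LOC121530328 had 29976 and LOC121529741 had 17234 counts per 1000000 alignments (CPM), whereas in the polyA library they had 9824 and 17192. These measures are unlike, since polyA reads are spread along the transcript and only those in the island were counted. The part of transcript length and island width in this difference was not tested. Both polyA levels fell away past the 3' end: the mean coverage in the 100 nt after it was 0.94% of that in the 100 nt before it at LOC121529741 and 0.40% at LOC121530328.

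The fourth island belonged to an RNA annotated as non-coding. LOC108107278, a lncRNA gene, held 105507 alignments at positions 374132 to 374499 on the plus strand of contig NW_024572605.1, and the most frequent 3' end was 5 nt before the gene end. Its edge was less sharp, with 53.3% of 3' ends within 10 nt, and 35.6% of its alignments were spliced (37610, of which 37533 had their longest gap in the polyA library too). This single island carried most of the lncRNA signal, since all 22 islands given to lncRNA genes held 108401 alignments. Of the other biotypes, 7200 islands were given to protein-coding genes, 8 to snRNA genes, 4 to pseudogenes and 1 to a snoRNA gene.

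Contig NW_024571840.1, on which no gene could be placed, gave 3 of the 10 leading islands. Its 16 islands, 8 on each strand, lay between positions 663 and 13431 and held 331333 alignments, 5.30% of the QuantSeq library. The polyA library had 1.84% of its alignments there. The leading one of them, with 166057 alignments on the minus strand (positions 13045 to 13431), ranked second in the library, and 80.0% of its 3' ends lay within 10 nt of position 13075. Splicing was nearly absent on this contig, with 269 spliced alignments in all, and 15 of the 16 islands had 11 or fewer. The widest 3 islands of 1000 or more alignments also lay here, at 2419, 1696 and 1570 nt. In the widest, on the plus strand, 37.7% of 3' ends lay within 10 nt of position 5072 and a second frequent 3' end followed 808 nt downstream, and the mean polyA coverage rose across position 5072 from 198 to 2745.

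A further island given to no gene ranked just after that of LOC108107278, at positions 55618 to 55902 on the minus strand of contig NW_024573030.1, with 56900 QuantSeq alignments. It stood out from the other leading islands by its low polyA level of 241 CPM, against 9095 CPM in QuantSeq. Its most frequent 3' end lay in no gene, and no gene called on its strand lay within 500 nt upstream. The other 3 leading islands with a gene ended 2 or 3 nt before the ends of the protein-coding genes LOC108104438, LOC108102464 and LOC108113208, with 47543, 46146 and 45589 alignments. LOC108102464 had 86.8% of its 3' ends within 10 nt but LOC108113208 only 33.4%, with a second frequent 3' end 39 nt upstream that held 9833 alignments beside the 11163 of the first.

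The 3' edge was sharp in most islands. Over all islands, 42.0% of alignments ended at the single most frequent base of their island, 58.7% within 5 nt, 66.6% within 10 nt and 74.7% within 25 nt. Per island, the median share within 10 nt was 66.7% (quartiles 48.1 and 81.3%). In 912 islands (11.3%) at least 90% of 3' ends fell in that window, and in 2160 (26.8%) less than 50% did. The spread was lopsided, with 21.6% of 3' ends more than 10 nt upstream of the most frequent base and 11.8% more than 10 nt downstream. Depth did not order the islands by sharpness: after every island was thinned to 50 alignments, the median share was 68% in islands of 50 to 99, 66% in those of 1000 to 9999 and 72% in those of 10000 or more.

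**Figure D2:**
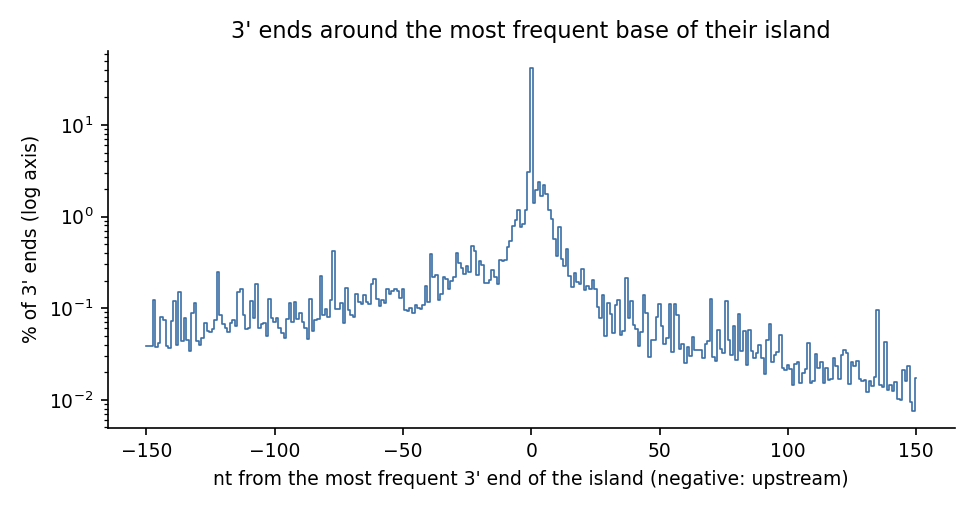
Share of 3' ends (log axis, % of all alignments in the 8071 islands) at each base around the most frequent 3' end of their island, upstream to the left. The central base holds 42.0%, the base before it 3.09% and the base after it 1.42%. From 2 to 14 nt away the downstream side lies above the upstream side, with 2.38% against 0.83% at 3 nt. Further out the upstream side lies mostly above.

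Read length moved with the edge. A read that does not reach the tail has its 3' end set by the length of the read and not by cleavage. Alignments of 145 nt or more, close to the full read, made up 7.86% of the islands' alignments. Only 16.3% of them ended within 10 nt of the most frequent base and their median position was 45 nt upstream, compared with 70.9% within 10 nt among shorter alignments. With long alignments left out and islands rebuilt, 71.5% of 3' ends lay within 10 nt.

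Many islands held a second 3' end. In 3871 islands (48.0%) another position, over 25 nt away, had at least 25% of the alignments of the first. No minimum count was set, so in small islands a few alignments sufficed. Ends set by read length were not removed from this count. The median distance was 83 nt, and in 1345 of these islands (34.7%) the second position was the downstream one. Among the 721 islands of 1000 or more alignments, the sharpest were 2 islands with all of their 2485 and 2089 3' ends within 10 nt, on contigs without placed genes, and both had 0 polyA alignments. They were only 75 and 124 nt wide, and their alignments lay at 237 and 78 distinct positions. The next, 76 nt before the end of the protein-coding gene LOC108114838, had 99.4% of 5776 alignments within 10 nt, at 121 distinct positions. The least sharp was an island 214 nt before the end of LOC108111906 (12.3% of 1243 alignments within 10 nt), followed by one 494 nt beyond the end of LOC108106522 (14.5% of 2399) and one 301 nt before the end of LOC108108078 (16.7% of 1020).

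Spliced alignments were rare. In the kept islands 217894 alignments (3.64%) had more than 1 block, 65.9% of islands had none, and in 491 islands (6.08%) they made up 10% or more. They were unevenly spread, with 50.8% of them in 10 islands. Among islands of 1000 or more alignments the highest spliced shares were 99.4% of 3354 on contig NW_024573558.1, 98.1% of 3324 inside LOC108107428 and 81.3% of 12414 at the end of LOC108110765. The last ended 4 nt before the gene end and polyA coverage dropped there to 4.58% of the level before. At the other 2, polyA coverage rose across the 3' end, to 396% and 377% of the level before, and the island in LOC108107428 lay 2238 nt before the gene end.

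The share of gaps seen in both libraries differed by gap length. Of the 242837 spliced alignments of the library, 86.2% had their longest gap at the same position in the polyA library. This share was 46.5% for the 1474 alignments with gaps of 21 to 39 nt, 99.4% for gaps of 40 to 99 nt, 96.2% for 100 to 999 nt and 83.1% for 1000 to 9999 nt, but 11.6% for 10000 to 99999 nt and 1.73% for 100000 nt or more. In 177 islands 50% or more of the alignments were spliced. In 65 of these fewer than 50% of the spliced alignments had their longest gap seen in the polyA library. These 65 had a median width of 25 nt and held 8373 alignments, so a small part of the islands consisted mostly of short 3' blocks.

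**Figure D3:**
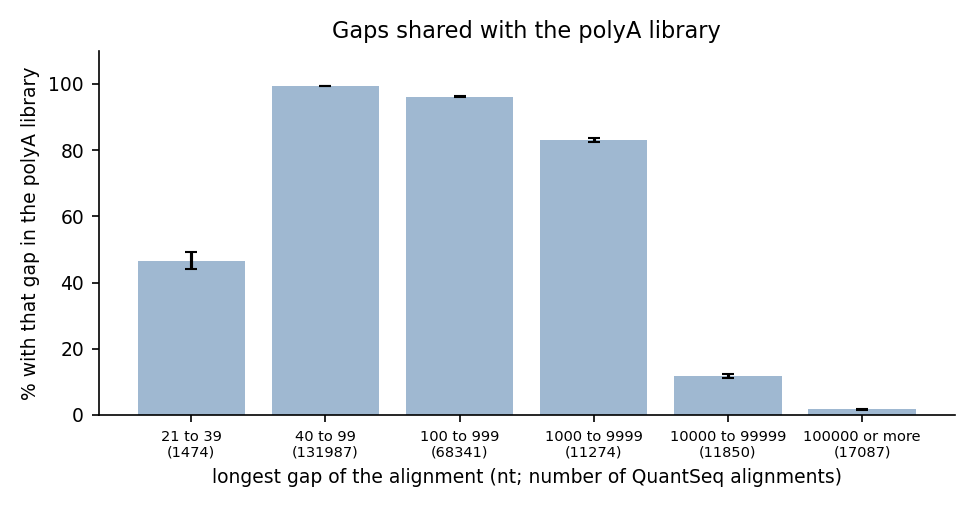
Share of spliced QuantSeq alignments whose longest gap is also present in the polyA library, by gap length, with exact 95% intervals as error bars and the number of alignments under each bar. The share is 46.5% from 21 to 39 nt, between 83.1% and 99.4% from 40 to 9999 nt, and 11.6% and 1.73% in the longest classes. Gaps under 21 nt are not drawn.

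Islands were then set against gene ends. A gene end was the 3' side of the gene's span, on the strand with more polyA alignments. Of the 8071 islands, 7235 (89.6%) were given to a gene on their strand, and 5665 of the 7688 genes with a called strand had at least 1 island. The most frequent 3' end lay within 50 nt of the gene end in 4079 islands (50.5%), which held 63.6% of the library. The 3' ends lay just inside the annotated end: the median position over islands with a gene was 7 nt before it, 2991 (41.3%) were 1 to 10 nt before it, and only 41 were exactly at it. The most common position was 2 nt before the end, with 777 islands. Poly-A stretches had been trimmed from the reads before mapping, and the part of that step in this offset was not tested.

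The polyA library stopped where these islands ended. Mean polyA coverage in the 100 nt after the most frequent 3' end was compared with the 100 nt before it, for the 3712 islands with a coverage of at least 10 before. For islands within 50 nt of a gene end the median was 0.12% of the level before (quartiles 0 and 4.49%, 1859 islands). In the 725 islands that lay 51 to 500 nt before the gene end it was 27.8% (quartiles 9.04 and 63.6%), and in the 86 that lay 51 to 500 nt beyond it 18.9%.

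Islands deep inside genes differed from those at gene ends in this measure. There were 1510 islands (18.7%) more than 500 nt before the gene end, with 6.75% of the library. Their 3' edge was nearly as sharp, with a median of 68.0% within 10 nt compared with 70.4% at gene ends, but the polyA library ran on through most of them, with a median coverage after the 3' end of 83.3% of that before (quartiles 33.6 and 140.5%, 744 islands). Over all 3712 islands, coverage fell below 10% in 1977 (53.3%) and stayed at 50% or more in 896 (24.1%). No genome sequence was used here, so the bases next to these 3' ends were not examined.

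**Figure D4:**
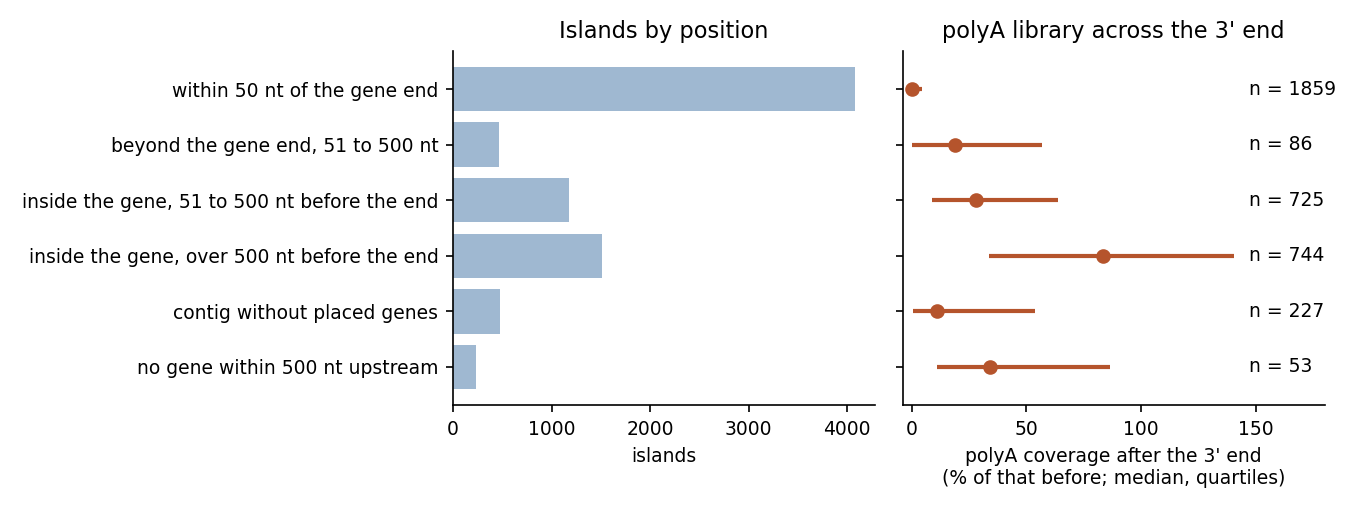
Number of islands by the position of their most frequent 3' end (left), and polyA coverage in the 100 nt after that base as a percentage of the 100 nt before it (right, points are medians, lines are quartiles, n is the number of islands with a coverage of 10 or more before). The median is 0.12% at gene ends and 83.3% in islands more than 500 nt inside a gene. A pair of small classes, islands in genes called on the other strand or on none, is not drawn.

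A minority of islands was given to no gene on their strand. They included 478 on contigs without placed genes (11.2% of the library, of which contig NW_024571840.1 held 47.2%). Whether these 478 lie in genes is unknown, as no gene could be placed there. A further 238 lay in no gene and had none called on their strand within 500 nt upstream. Another 85 lay inside a gene called on the other strand only and 35 inside a gene without a called strand. The last class was unlike the rest, with a median width of 103 nt, 29.4% of alignments spliced and 3 of 35 islands with 10 or more polyA alignments. The strand call itself needed 10 polyA alignments, so the polyA share of this class is set in part by its definition.

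Most genes with an island had a single one. This was so for 4511 of 5665 genes (79.6%), while 878 had 2 and 276 had 3 or more. In the 1154 genes with several, the leading island held a median of 67.8% of the gene's island alignments, and it was the most downstream one in 582 (50.4%). Of these genes 878 had 2 islands, where a share close to this needs no preference for either. The share was not read as a choice of site. The largest number was 20, in the protein-coding gene LOC108112164 (positions 6420969 to 6486935 on the plus strand of contig NW_024573812.1). Only 1 of its islands ended near the gene end, 5 nt before it, and 19 lay more than 500 nt inside. They held 50 to 1599 alignments, with a median of 105, and in the 6 with enough coverage the polyA level after the 3' end was a median of 163% of that before. LOC108117593, LOC108109793 and LOC108116866 had 7 islands each, of which 6, 7 and 6 lay more than 500 nt before the end.

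The polyA library covered nearly all islands. At least 1 polyA alignment had its 3' block in 7690 islands (95.3%, interval 94.8 to 95.7%), and 10 or more in 6888 (85.3%). The 381 islands without one held a median of 80 QuantSeq alignments. In the 6888 islands, the log2 ratio of polyA CPM to QuantSeq CPM had a median of -2.33 and 90% lay between -4.70 and 0.15. The polyA reads are spread along the transcript by design, and the part of transcript length in this ratio was not tested.

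Same-strand and opposite-strand neighbours were about equally common. Of 7920 neighbouring pairs, ordered by their most frequent 3' ends, 4185 (52.8%) were on the same strand, 1864 (23.5%) had a plus island to the left of a minus island and 1871 (23.6%) a minus island to the left of a plus island. Strand switches alternate along a contig, so 1864 and 1871 had to be nearly equal and do not compare convergent with divergent genes. Of the same-strand pairs, 1483 (35.4%) belonged to 1 gene, with a median of 714 nt between 3' ends compared with 5551 nt for the others. Without the pairs in 1 gene, 2702 of 6437 pairs (42.0%) were on the same strand, and within 1000 nt, pairs in 1 gene included, the share was 49.7%. The longest run of islands on a strand, 19, lay inside LOC108112164.

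Order alone did not separate genes that converge from genes that diverge. Transcripts that converge and run past each other place the minus 3' end to the left of the plus 3' end, and are then counted with the divergent pairs. Opposite-strand pairs were therefore also split by whether the islands overlapped. In 1569 pairs the 3' ends faced each other and the islands were apart, with a median of 3264 nt between the 3' ends. In 295 they faced each other and the islands overlapped, by a median of 85 nt. In 425 the 3' ends had passed each other or fell on the same base (6 pairs), with a median overlap of 113 nt and 53 nt between the 3' ends. Islands that overlap at their 5' sides would also fall among these 425 and were not told apart. In the remaining 1446 pairs the 5' sides faced and the islands were apart, with a median of 6617.5 nt between the 3' ends. Counted in this way, 2289 of 3735 opposite-strand pairs (61.3%) were classed as tail to tail and 720 pairs, 9.09% of all, overlapped. The 61.3% does not measure how genes are arranged. By order, facing and opposite pairs alternate along a contig, so adding the 425 to the facing pairs had to raise their share. Pairs beside these 425 were not reordered.

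**Figure D5:**
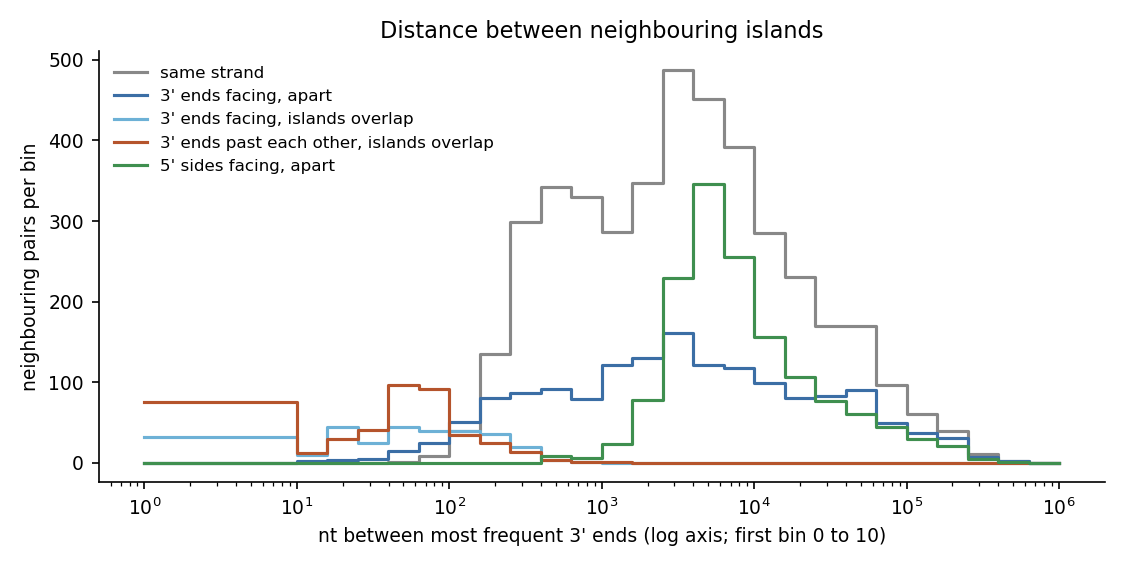
Number of neighbouring pairs by the distance between their most frequent 3' ends (log axis, the first bin holds 0 to 10 nt), for same-strand pairs and 4 layouts of opposite-strand pairs. Overlapping pairs lie at short distances, with medians of 59 nt (facing) and 53 nt (past each other), while pairs with facing 5' sides have a median of 6617.5 nt.

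The sizes of the islands were compared within overlapping pairs. Islands under 50 alignments were not kept, so how often a strong island has a faint copy on the other strand cannot be told. The smaller island had a median of 47.1% of the alignments of the larger where the 3' ends had passed each other and 37.6% where they faced, and it was below 1% in 4 and 3 pairs. In pairs that did not overlap, the median was 41.4% with facing 3' ends, 39.2% with facing 5' sides and 41.1% on the same strand. Both islands lay within 50 nt of a gene end in 300 of the 425 and in 144 of the 295 pairs, and both had 10 or more polyA alignments in 360 and 256. For gene ends these shares were 70.6 and 48.8%, beside 40.7% of pairs with facing 3' ends that were apart and 28.9% of pairs with facing 5' sides. As an example chosen after its values were seen, LOC108111789 on the minus strand and LOC108111787 on the plus strand of contig NW_024573278.1 had their most frequent 3' ends at the same base, position 194950, with 1272 and 1264 alignments. Their polyA counts were 1317 and 1276.

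The 3 pairs of facing islands with most alignments in the smaller one showed both layouts. On contig NW_024571840.1, a plus island of 16323 alignments and a minus island of 4415 had their 3' ends 86 nt apart and overlapped by 32 nt. On contig NW_024572029.1, LOC108118391 on plus (3621 alignments) and LOC108118390 on minus (9572) ended 7 and 5 nt before their gene ends, 3680 nt apart. LOC108113135 on plus (7423) and LOC108113182 on minus (2418), on contig NW_024573812.1, lay 2342 nt apart and ended 3 and 4 nt before their gene ends. This island in LOC108113182 had only 48 polyA alignments, against 2667 in that of LOC108113135. A larger island of LOC108113182, 210 nt before the gene end, had 3222 QuantSeq and 4928 polyA alignments.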

How the data were processed

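Per the labels and the paper's methods, the authors trimmed adapters and poly-A stretches from the first reads of the QuantSeq library and mapped them with STAR 2.7.3a to ASM1815383v1. SAMtools 1.10 and bedtools 2.28.0 are named in the submitters' processing notes. The deposited lists hold 1 line per genome-unique alignment, with a mapping score that the authors' aligner set to the same value in every line. The score was not used as a level and alignments were counted instead. Reads with several genomic places were not part of the lists.

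Alignments were merged in Python 3.11.15 with numpy 2.4.6, pandas 2.3.3 and scipy 1.17.1. Merging over whole spans was run first and merging over aligned bases second, and the description rests on the latter because the former chained many genes. The calculations were tested on simulated data. The gene table gives neither contig nor strand. Its 15386 genes formed 267 runs of rising start. A run was placed on a contig where at least 90% of the contig's polyA junctions (at least 30) lay inside a gene of the run and only 1 contig passed, without a run overhanging the contig's furthest aligned base by more than 20000 nt. This placed 56 runs with 14107 genes (91.7%), under a condition on overhang added after a first attempt placed fewer. Strand was called from at least 10 polyA alignments in a gene.

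Named islands were the 10 with most alignments. Among those of 1000 or more alignments, the 3 sharpest, least sharp, widest and most spliced were added, and the 3 facing pairs with most alignments in the smaller island. Genes with most islands and overlapping pairs were picked once their values were known. Gene lists and ovary cell markers chosen for this work could not be matched, since the gene table gave LOC identifiers only. Members and lists were chosen with earlier results of these data known. The study's methods name another stock than the strain label, and whether both are the same flies was not settled. The D. pseudoobscura and D. bifasciata libraries were not used here.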

Additional observations from a re-analysis of the deposited data

How the results depend on the processing

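No paired analysis was possible because each group had 1 library and the labels give no replicate numbers, and for the same reason no replicate could be left out. The values below are, where they moved, the number of islands, their median width, the share of alignments in the leading 10, the share of 3' ends within 10 nt, the spliced share, the share of facing (convergent) neighbours and the share of islands with polyA alignments. Except within 1000 nt, the facing share follows the share of opposite-strand pairs, because strand switches alternate along a contig. A share or median counted as moved when it left the exact 95% interval of the main value, and these intervals are narrow at this depth. A number of islands counted as moved only beyond a 1.5-fold change, so the numbers with identical alignments counted once, 554 against 696 for whole spans and 6073 against 8071 for aligned bases, are not among the moved values. Of 53 alternatives to whole spans 34 moved, and of 48 to aligned bases 35 moved.

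For islands over whole spans, merging over aligned bases changed nearly everything, to 8071 islands of 299 nt, 13.63% in the leading 10, 66.57% within 10 nt and 3.64% spliced. Leaving out alignments with a gap over 20000 nt, an alternative chosen after seeing the data, gave 7321 islands of 350 nt, 17.36% in the leading 10, 61.06% within 10 nt and 3.45% spliced. A minimum of 10 alignments gave 1266 islands of 288 nt, 29.20% within 10 nt, 13.77% facing and 85.94% with polyA. A minimum of 200 gave 415 islands of 146667 nt, 28.97% within 10 nt, 28.81% facing and 99.76% with polyA. Counting identical alignments once gave 16262 nt, 20.38% in the leading 10, 7.03% within 10 nt, 4.62% spliced and 99.10% with polyA. Bridging gaps of up to 100 nt gave 29.06% within 10 nt and 98.39% with polyA. Without the leading island, 24.36% lay in the leading 10, 27.74% within 10 nt, and 4.0% were spliced. A window of 5 nt held 25.85% and one of 25 nt 32.34% of 3' ends. Within 1000 nt 8.33% of neighbours faced each other, and 89.08% of islands had at least 10 polyA alignments.

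For islands over aligned bases, all alternatives were chosen after seeing the data. A minimum of 10 gave 15075 islands of 218 nt, 66.66% within 10 nt, 3.74% spliced, 17.83% facing and 83.26% with polyA. A minimum of 200 gave 3821 islands of 355 nt, 66.79% within 10 nt, 25.72% facing and 98.90% with polyA. Counting identical alignments once gave 331 nt, 1.91% in the leading 10, 51.88% within 10 nt, 3.61% spliced, 25.32% facing and 98.06% with polyA. Bridging 100 nt gave 448.5 nt, 15.06% in the leading 10, 63.57% within 10 nt, 3.66% spliced, 25.62% facing and 97.25% with polyA. Without the leading island the values were 11.33% in the leading 10, 66.05% within 10 nt and 3.75% spliced. Windows of 5 and 25 nt held 58.69% and 74.75% of 3' ends. Within 1000 nt 31.50% of neighbours faced each other, and 85.34% of islands had at least 10 polyA alignments. Unspliced alignments alone gave 13.54% in the leading 10, 68.04% within 10 nt and 95.94% with polyA. Alignments under 145 nt gave 249 nt and 71.53% within 10 nt.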
